A study of Mus musculus with 14 samples.

Results

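The semaphorins, plexins, Slits, Robos, netrins and netrin receptors are the classical axon guidance families, and 45 of the 36118 genes in the hippocampal count table belong to them. The members were taken by gene symbol alone: semaphorins of classes 3 to 7, the A to D plexins, Slit1 to Slit3, Robo1 to Robo4, the secreted netrins, Unc5a to Unc5d and Dcc. All 45 passed the filter on low counts, among 16637 genes tested. The study asked how loss of gasdermin D, the pore-forming executor of pyroptosis, alters the response of the neonatal hippocampus to hyperoxia. PolyA RNA was sequenced from the hippocampus of 14 mice at postnatal day 15, 1 library per mouse, with exposure from day 1 to day 14. The 4 WT-RA mice were wild-type in room air, the 4 WT-O2 mice wild-type in 85% O2, the 3 KO-RA mice GSDMD knockout in room air and the 3 KO-O2 mice GSDMD knockout in 85% O2. The labels give the breed as C57/BL6 for every group. The knockout is global and carries a small CRISPR deletion in the gene, and the wild-type mice were littermates from heterozygous matings.

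These families steer growing axons and migrating cells. Semaphorins are mostly repellents that signal through plexins, the secreted class 3 members with the help of the coreceptors neuropilin-1 and neuropilin-2 and the membrane-bound members mainly by contact. Slits repel through Robo receptors, while netrin-1 attracts through Dcc and repels through Unc5 receptors. In the hippocampus the same molecules pattern the layered entorhinal, commissural and mossy fibre inputs, and several of them also act in vessels, oligodendrocytes and synapses.

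The libraries held 27272270 to 28257496 estimated counts each. Gsdmd had 41 to 63 counts in the wild-type libraries and 22 to 42 in the knockout libraries, so the transcript was still counted in the knockout and the ranges overlapped narrowly. The study reported no detectable GSDMD protein in knockout brains by immunostaining. By qRT-PCR it reported no measurable transcript, with the data not shown. Replicate 4 of WT-O2 is hyperoxia by its title but room air by its treatment field and was kept as WT-O2. The knockout mice carry a separate range of mouse numbers from the wild-type mice, so genotype and whatever that range stands for cannot be told apart. Marker lists of neighbouring regions differed by genotype. The summed level of 10 striatal projection neuron genes was 606 to 887 CPM in WT-RA, 421 to 968 in WT-O2, 160 to 269 in KO-RA and 174 to 185 in KO-O2, and 9 hippocampal field genes summed to 706 to 958, 918 to 1110, 1340 to 1679 and 1387 to 1609. CPM here stands for counts scaled to a common library size by TMM. Calls here use the thresholds given below. In KO-RA against WT-RA 10 of 10 striatal, 5 of 10 thalamus and habenula and 4 of 4 cholinergic genes were called lower. So were 5 of 6 subplate and deep layer and 4 of 4 oligodendrocyte genes, while 8 of 9 hippocampal genes were called higher. Over all genes tested 6.7% were called lower and 3.75% higher. Of the thalamic genes not called, Prkcd stood at a log2 fold change of -1.22 (q = 0.292) and Lhx9 at 0.44 (q = 0.314). In KO-O2 against WT-O2 the called counts of these lists, in the same order, were 10, 5, 4, 4, 3 and 4. Over all genes tested 4.35% were called lower there and 2.51% higher. The thalamic gene Gbx2 was at 0 in 1 knockout library and the cholinergic gene Lhx8 in 3. No gene of the endothelial, mural, microglial or choroid plexus lists was called in any comparison. In KO-RA against WT-RA, 2 astrocyte, 2 Cajal-Retzius and 1 meningeal gene were called higher, and 2 interneuron and 1 oligodendrocyte precursor gene were called lower. In KO-O2 against WT-O2, 1 astrocyte gene was called higher and 1 interneuron gene lower. In WT-O2 against WT-RA 1 hippocampal gene was called higher and 1 subplate gene lower, beside 0.349% and 0.295% of all genes tested. These are bulk samples, in which fewer cells of a type and less RNA per cell cannot be told apart, and the part of the markers in the results was not tested.

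Levels between members were compared per kilobase of transcript. Means here and below are given ± SD over mice, with n = 4 in each wild-type group and n = 3 in each knockout group. In WT-RA the order was led by Sema7a, a GPI-anchored semaphorin, at 42.3 ± 11.1 CPM per kilobase, Sema4d, a ligand of plexin-B1, at 40.4 ± 8.20, and Sema6b, a plexin-A ligand, at 39.6 ± 2.11. The netrin receptor Unc5a followed at 29.8 ± 3.27, then the Slit receptor Robo2 at 26.5 ± 6.83 and Plxna1, a signalling receptor for class 3 semaphorins, at 24.2 ± 3.07. At the other end stood Sema3b at 1.03 ± 0.335, Sema3g, a semaphorin of vessels, at 0.983 ± 0.205 and Ntn5 at 0.309 ± 0.177. Neighbours in this order rarely stood apart, since the ranges of the 4 WT-RA mice overlapped in all but 4 of the 44 neighbouring pairs.

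Across groups the upper end of the order was largely shared, with 8 members among the 10 highest per kilobase in all 4 groups. Sema6a, a transmembrane ligand of plexin-A2 and plexin-A4, was the clearest exception, at rank 7 in WT-RA and 12 in WT-O2 but only 22 in KO-RA and 21 in KO-O2. Slit1 held ranks 9, 7, 5 and 4 in the same groups, and the repellent Sema3a ranks 37, 40, 44 and 44. The plot of levels per length shows these shifts against the spread of the mice.

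**Figure D1:**
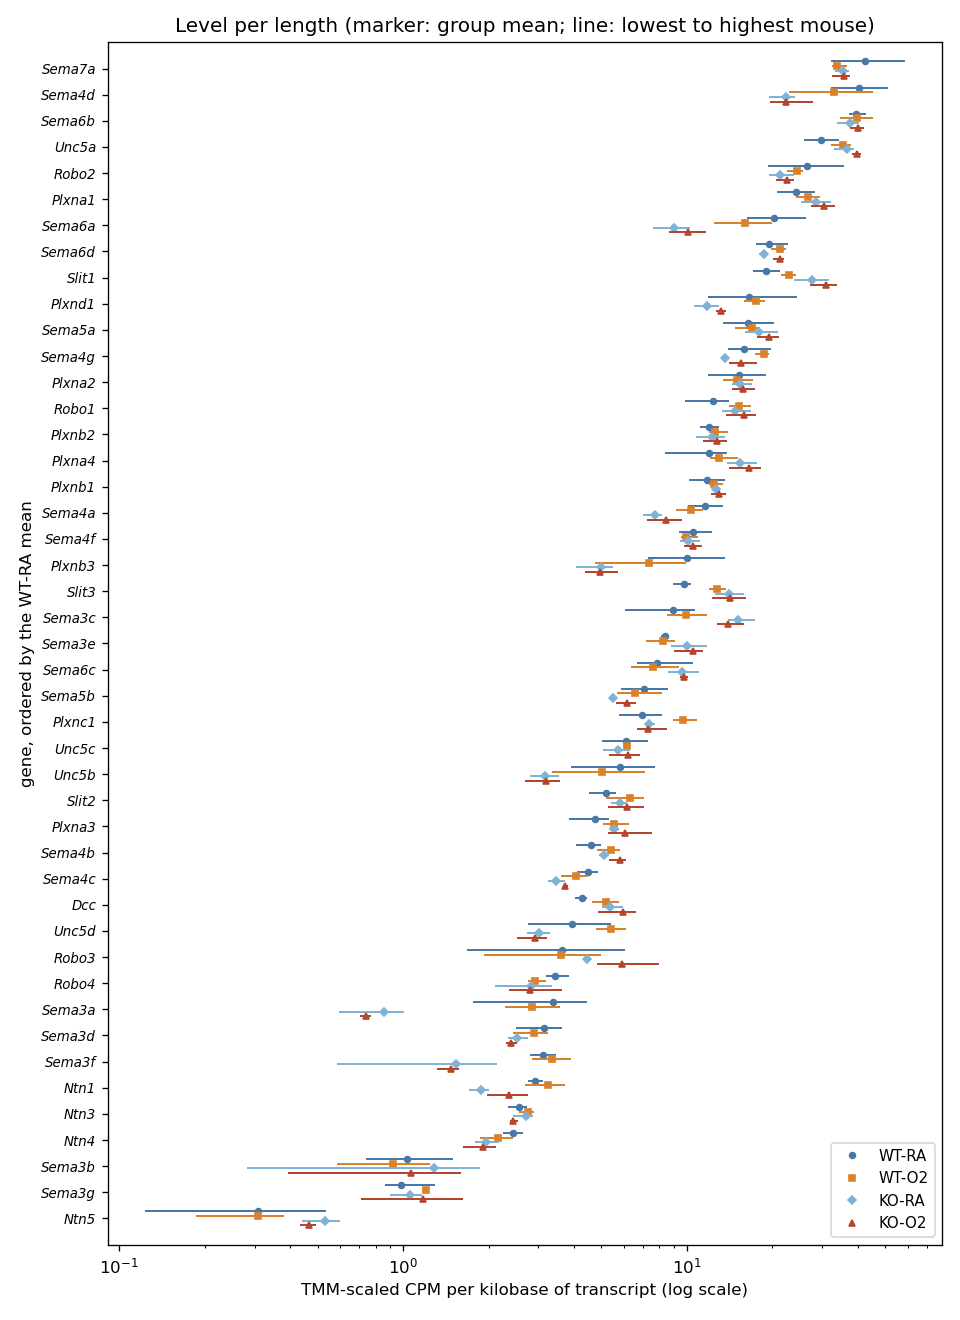
Level of each of the 45 genes in TMM-scaled CPM per kilobase of transcript (log axis), with the mean of each group as a marker and the lowest to highest mouse as a line. Sema7a heads the WT-RA order at 42.3 CPM per kilobase and Ntn5 closes it at 0.309, and the knockout ranges of Sema6a and Sema3a lie to the left of their wild-type ranges.

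The first comparison asked which of these genes changed with hyperoxia in wild-type mice. Calling a gene needed a log2 fold change of 0.32 or more in size, p below 0.05 and q below 0.1, where q is the p of the edgeR quasi-likelihood test after Benjamini-Hochberg adjustment over all genes tested. Of the 45 members 2 were called, the ligand Slit3 and the receptor Plxnc1, both higher in WT-O2. Over all genes tested 0.643% were called, 0.349% higher and 0.295% lower.

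Slit3, a secreted Robo ligand, stood at 52.2, 53.5, 47.2 and 51.5 CPM in the WT-RA mice and at 66.2, 71.0, 67.1 and 63.3 CPM in the WT-O2 mice. All 4 WT-O2 mice were above all 4 WT-RA mice. The log2 fold change was 0.39 with a standard error of 0.08 (q = 0.0679).

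Plxnc1, the plexin receptor of Sema7a, stood at 45.2, 56.4, 42.4 and 59.4 CPM in WT-RA and at 69.5, 78.4, 68.2 and 65.8 CPM in WT-O2. The groups again did not overlap, with a wider spread in room air. Its log2 fold change was 0.47 with a standard error of 0.11 (q = 0.0808). Its ligand Sema7a averaged 139 ± 36.5 CPM in WT-RA and 112 ± 5.49 in WT-O2, a log2 difference of -0.32 that was not called (q = 0.324), and 1 WT-RA mouse at 192 CPM stood above the rest.

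By edgeR both calls were close to the threshold, while DESeq2 gave q of 0.00314 for Slit3 and 0.00392 for Plxnc1. The edgeR calls were lost when replicate 2 or 3 of WT-RA or replicate 1, 2 or 3 of WT-O2 was left out, with q of 0.119 to 0.227 for Slit3 at log2 fold changes of 0.35 to 0.41, and of 0.123 to 0.271 for Plxnc1 at 0.40 to 0.53. With replicate 4 of WT-O2 counted as room air, as its treatment field has it, q was 0.245 for Slit3 and 0.266 for Plxnc1.

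The promoters of these genes are shown because the 2 called members rose together, as the 250 bases before the start of the gene in the RefSeq table (GRCm38.p6), 5′ to 3′ on the strand of the gene. Slit3 lies at chr11:35121206-35121455 on the plus strand and Plxnc1 at chr10:94944846-94945095 on the minus strand. Capitals mark ACGTG or GCGTG on either strand, both of them forms of the core of a hypoxia response element. GCGTG is also the core of an aryl hydrocarbon receptor element.
Slit3: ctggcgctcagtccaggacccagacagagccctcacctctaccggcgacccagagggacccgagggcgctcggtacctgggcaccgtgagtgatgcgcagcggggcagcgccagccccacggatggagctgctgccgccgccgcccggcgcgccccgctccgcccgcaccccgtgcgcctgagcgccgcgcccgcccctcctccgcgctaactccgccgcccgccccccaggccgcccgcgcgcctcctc
Plxnc1: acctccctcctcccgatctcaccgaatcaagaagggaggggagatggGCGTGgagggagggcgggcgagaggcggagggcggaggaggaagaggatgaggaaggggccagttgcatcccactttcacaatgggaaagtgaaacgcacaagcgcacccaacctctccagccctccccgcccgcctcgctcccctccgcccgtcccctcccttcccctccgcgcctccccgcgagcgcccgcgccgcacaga
Both windows are rich in G and C, at 78.8% in Slit3 and 68.8% in Plxnc1. The Slit3 window held neither core and the Plxnc1 window held GCGTG at position -203.

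Promoter windows were on hand for 36 of the 45 members. Dcc, Ntn1, Plxna1, Plxna4, Sema3b, Sema3f, Sema6a, Slit1 and Unc5d were not analysed here. ACGTG was found in 6 of the 36 windows (16.7%) and in 16.6% of 27025 promoter windows of all genes. GCGTG was found in 13 of 36 (36.1%) and 28.2%. CACGTG, an E-box that contains ACGTG, was found in 2 of 36 (5.56%) and 6.05%, and TGANTCA, an AP-1 site, in 2 of 36 (5.56%) and 6.87%. Both strands were searched throughout, and a match describes letters in the window only.

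With the unadjusted test, 13 of the 45 members, Slit3 and Plxnc1 among them, had an unadjusted p below 0.05 in WT-O2 against WT-RA, beside 12.2% of all genes tested, and 6 of 45 did not overlap between the groups, beside 5.99%. The 10 that were higher were Slit1, Slit2, Slit3, Plxnc1, Robo1, Dcc, Unc5a, Unc5d, Sema4b and Sema4g, and the 3 that were lower were Sema7a, Sema6a and Plxnb3. The median log2 fold change was 0.04 over the members and -0.01 over all genes tested.

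The Slits were the only group of roles with every member under an unadjusted p of 0.05, and their median log2 fold change was 0.27. Slit1 stood at 96.5, 107, 92.4 and 87.1 CPM in WT-RA and at 109, 111, 120 and 121 CPM in WT-O2, without overlap (log2 fold change 0.27, q = 0.221). Slit2 averaged 51.8 ± 4.46 CPM and 62.6 ± 8.64, with overlapping mice (0.27, q = 0.287). Neither was called.

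Among the receptors, Robo1, a main Slit receptor, stood at 106, 105, 88.2 and 75.3 CPM in WT-RA and at 114, 113, 107 and 126 CPM in WT-O2. The groups touched closely without overlapping (log2 fold change 0.30, q = 0.275). Dcc, the attractive netrin-1 receptor, stood at 42.0, 45.4, 45.6 and 42.6 CPM in WT-RA and at 59.2, 56.7, 48.2 and 49.9 CPM in WT-O2, also without overlap (0.28, q = 0.225).

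Unc5a, the most abundant netrin receptor, averaged 119 ± 13.1 CPM and 142 ± 9.08 in these groups (log2 fold change 0.25, q = 0.192). Unc5d, which also binds FLRT proteins on migrating neurons, averaged 36.2 ± 9.84 and 49.7 ± 4.94 CPM (0.46, q = 0.216), and was called by DESeq2 (0.46, q = 0.0764). The mice overlapped for both genes. Robo4, an endothelial Robo, was the non-overlapping member that was lower, at 10.4 to 12.3 CPM in WT-RA and 8.96 to 10.2 CPM in WT-O2, with a log2 fold change of -0.23 (q = 0.585).

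No class 3 semaphorin and no netrin had an unadjusted p below 0.05 in this comparison. Sema3c, the class 3 member of highest mean CPM over all 14 libraries, averaged 49.2 ± 10.9 CPM in WT-RA and 54.3 ± 7.15 in WT-O2, and Ntn1 17.2 ± 0.726 and 19.0 ± 2.72. Sema5a, the membrane semaphorin of highest mean CPM over all 14 libraries, averaged 178 ± 36.1 and 183 ± 14.9 CPM, Plxna1 218 ± 27.7 and 242 ± 19.8 CPM, and Robo2 158 ± 40.9 and 146 ± 7.14 CPM. None of these 5 differences passed the edgeR test, with q of 0.596 to 0.944.

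**Figure D2:**
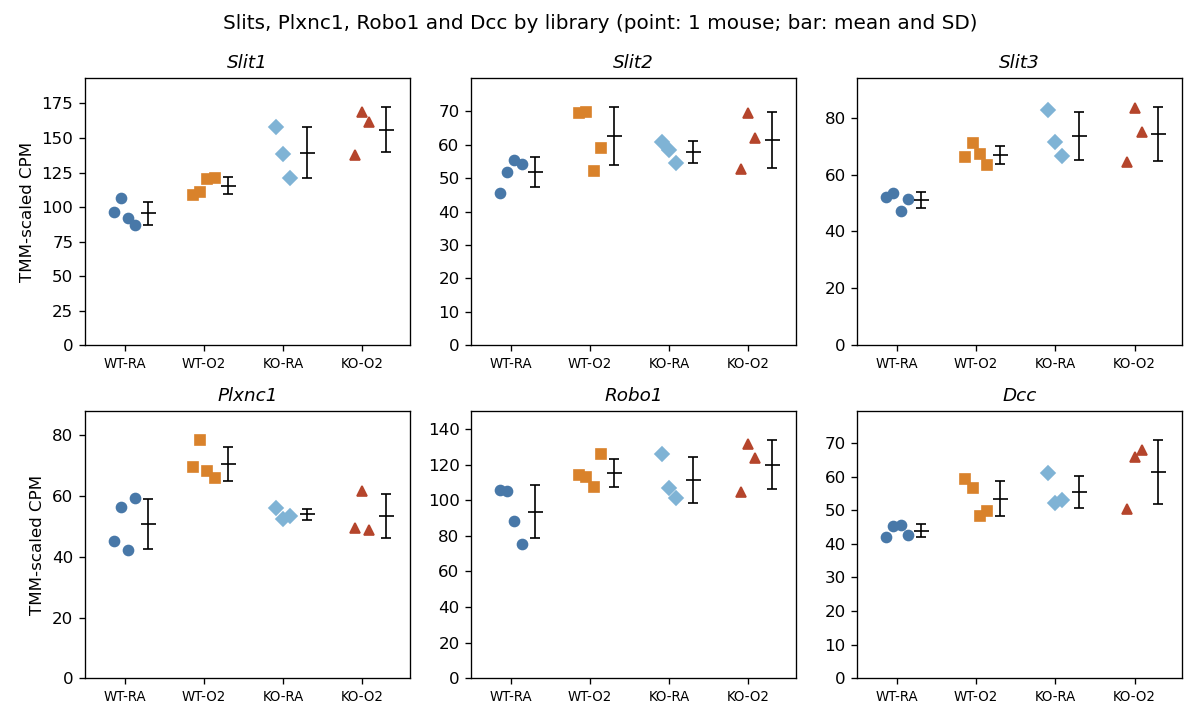
TMM-scaled CPM of Slit1, Slit2, Slit3, Plxnc1, Robo1 and Dcc in each of the 14 libraries by group, with the group mean and SD as a bar beside the points. Slit3 lies at 47.2 to 53.5 CPM in WT-RA and 63.3 to 71.0 CPM in WT-O2, while KO-RA and KO-O2 cover the same range as each other.

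The next comparison asked the same of the knockout mice. None of the 45 members was called in KO-O2 against KO-RA by edgeR, and none by DESeq2, beside 0.012% of all genes tested by edgeR. An unadjusted p below 0.05 was reached by 2 of 45 members, beside 4.86% of all genes tested. These were Ntn1, at 10.1, 11.4 and 11.7 CPM in KO-RA and 13.9, 11.7 and 16.0 CPM in KO-O2 (log2 difference 0.32, unadjusted p = 0.0249), and Sema6d, a plexin-A1 ligand, at 118, 117 and 113 CPM and 126, 136 and 135 CPM (0.19, unadjusted p = 0.0328), both with q = 0.997. Ntn1 touched between the groups and Sema6d did not overlap.

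The members that led the wild-type comparison were nearly level here. Slit3 stood at 82.6, 71.5 and 66.4 CPM in KO-RA and at 64.5, 83.4 and 74.9 CPM in KO-O2 (log2 difference 0.01, standard error 0.09). Plxnc1 stood at 56.0, 52.3 and 53.3 CPM and at 49.4, 61.6 and 48.9 CPM (-0.02, standard error 0.12). Both knockout groups overlapped for each gene.

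Small positive differences were frequent all the same. The log2 fold change was above 0 for 33 of 45 members (73.3%) and for 49.4% of all genes tested, and for 13 of 13 membrane semaphorins, which ranged from 0.00 to 0.19. It was above 0 for only 2 of 7 class 3 semaphorins and 1 of 4 netrins. Among 35 genes downstream of these families, described below, it was above 0 for 28. The groups did not overlap for 7 of 45 members, beside 11.8% of all genes tested, and all 7 were higher in KO-O2: Sema4b, Sema4c, Sema4g, Sema5b, Sema6d, Robo3 and Unc5a. Unc5a, for instance, was at 153, 153 and 132 CPM in KO-RA and 154, 163 and 161 CPM in KO-O2.

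The difference between the responses of the 2 genotypes was tested directly as an interaction. None of the 45 members was called by edgeR or by DESeq2, beside 0% of all genes tested by edgeR. An unadjusted p below 0.05 was reached by 4 of 45 members, beside 4.05% of all genes tested: Plxnc1 with a log2 difference of -0.49 (unadjusted p = 0.00861), Slit3 with -0.37 (unadjusted p = 0.0093), Unc5d with -0.50 (unadjusted p = 0.0435) and Ntn3 with -0.26 (unadjusted p = 0.0423). Each of the 4 had q = 0.9999. The exposure responses of Slit3 and Plxnc1 were therefore not shown to differ between genotypes.

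**Figure D3:**
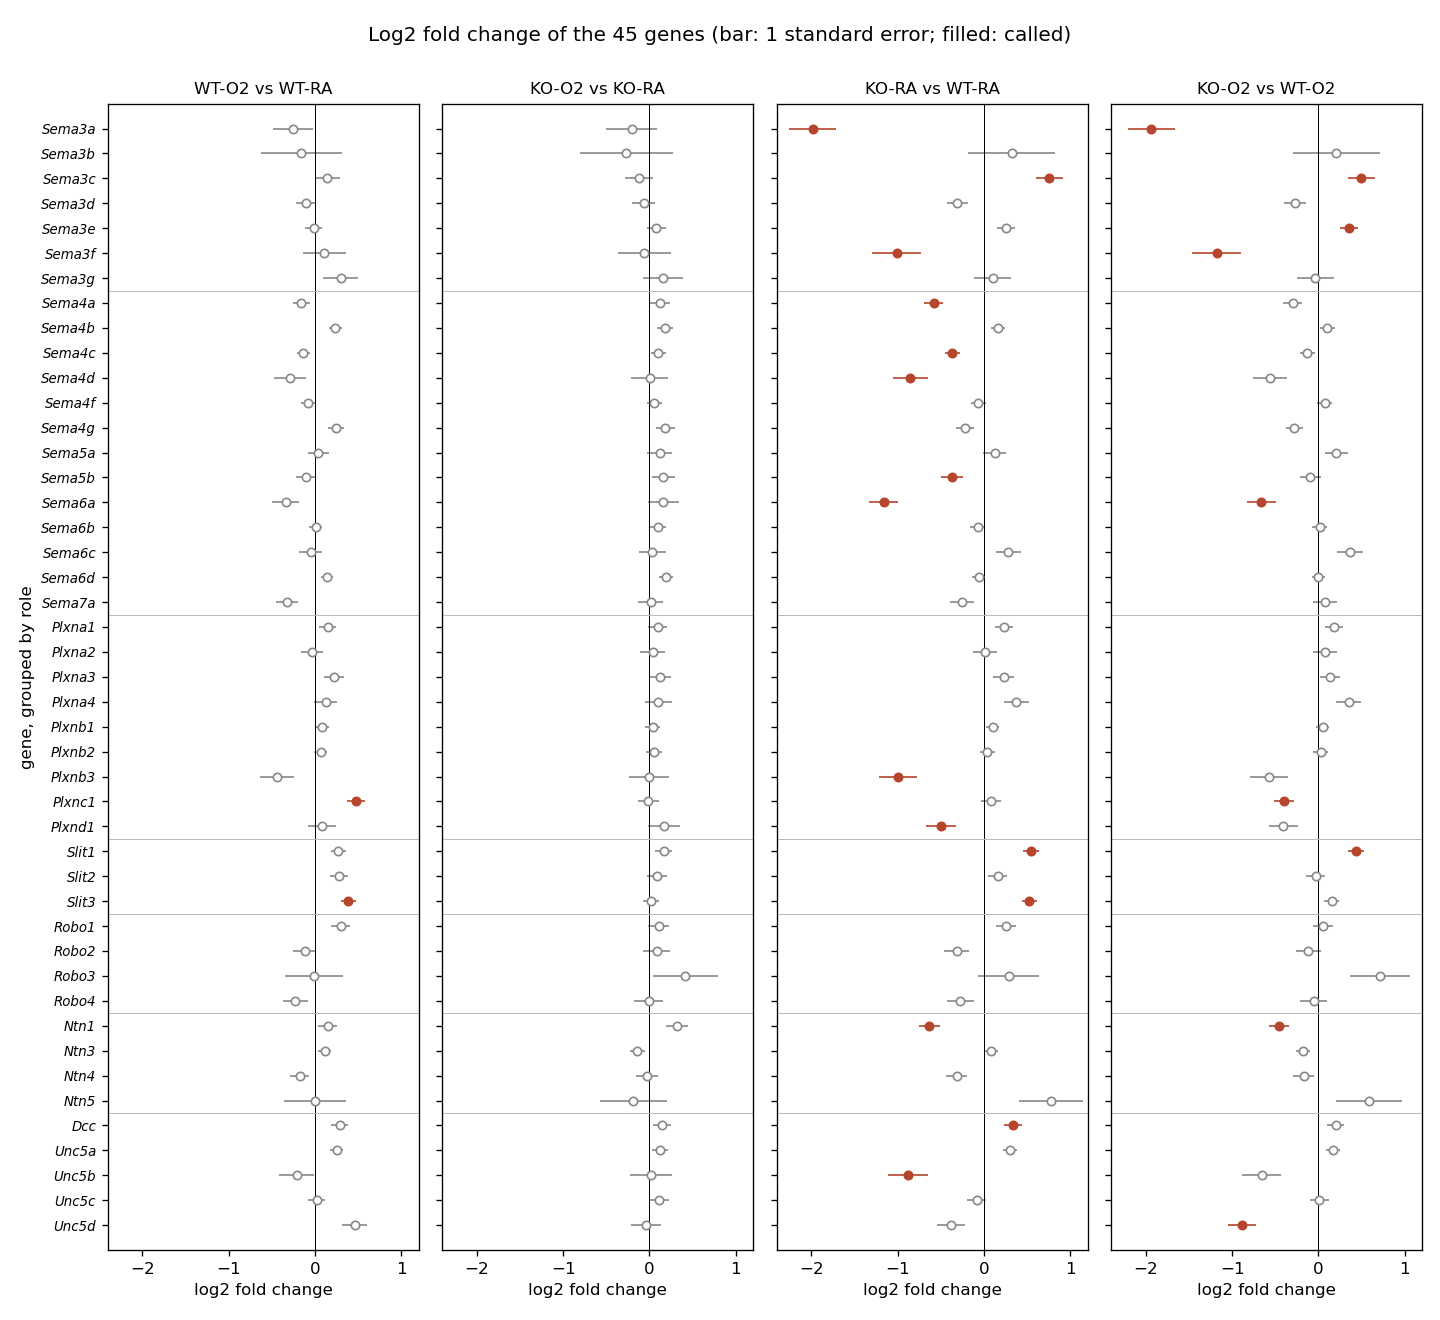
Log2 fold change of the 45 genes (horizontal axis, bar of 1 standard error) in the 4 group comparisons, grouped by role from class 3 semaphorins at the top to netrin receptors at the bottom, with called genes filled. The filled points number 2, 0, 15 and 9 from left to right, and Sema3a lies farthest to the left in both genotype comparisons.

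Genotype was compared within each exposure. In room air 15 of the 45 members were called, 4 higher and 11 lower in KO-RA than in WT-RA. Over all genes tested 10.4% were called, 3.75% higher and 6.7% lower. In hyperoxia 9 of 45 were called, with 3 higher in KO-O2 and 6 lower, beside 6.86% of all genes tested, 2.51% higher and 4.35% lower. Median log2 fold changes were 0.01 over the members and -0.01 over all genes tested in both exposures, so the members moved in both directions. The 2 genotype comparisons share no library, while each shares a wild-type group with the exposure comparison above.

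The comparisons had 6 called members in common, of 15 and of 9, and each had the same direction in both. These were Sema3a, Sema3f, Sema6a and Ntn1, lower in the knockout, and Sema3c and Slit1, higher. All 8 wild-type mice were separated from all 6 knockout mice for 5 of 45 members (11.1%), namely Sema3a, Sema3f, Sema6a, Sema3c and Slit1, and for 5.9% of all genes tested. Within room air 20 of 45 members did not overlap, beside 19.6%, and within hyperoxia 13 of 45, beside 19%.

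Sema3a, the founding class 3 repellent that signals through neuropilin-1 and plexin-A receptors, had the largest log2 fold change in size among the 45 members in both genotype comparisons. It stood at 10.5, 19.2, 26.2 and 24.4 CPM in WT-RA, 13.7, 21.0, 14.7 and 17.9 CPM in WT-O2, 3.57, 5.70 and 5.94 CPM in KO-RA and 4.55, 4.44 and 4.20 CPM in KO-O2. Every knockout mouse was below every wild-type mouse. The log2 fold change was -1.98 with a standard error of 0.27 in room air (q = 0.00055) and -1.94 with a standard error of 0.28 in hyperoxia (q = 0.00125).

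Sema3f, a class 3 repellent that acts through neuropilin-2, stood at 9.58 to 11.6 CPM in WT-RA and 9.70 to 13.1 CPM in WT-O2. The knockout mice were at 2.01, 7.24 and 6.37 CPM in KO-RA and 5.30, 4.51 and 5.21 CPM in KO-O2, all below the wild-type mice. Log2 fold changes were -1.01 (q = 0.0351) and -1.18 (q = 0.0238). Replicate 1 of KO-RA, with the lowest value, set part of the size in room air, which was -0.63 without it (q = 0.0309).

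Sema3c, a class 3 semaphorin with roles in vessels and the heart as well as axons, moved the other way. It stood at 50.3, 54.9, 58.2 and 33.5 CPM in WT-RA, 64.0, 46.9, 52.0 and 54.3 CPM in WT-O2, 94.97, 77.1 and 77.6 CPM in KO-RA and 70.6, 72.8 and 86.6 CPM in KO-O2. Every knockout mouse was above every wild-type mouse. The log2 fold change was 0.76 in room air (q = 0.00648) and 0.50 in hyperoxia (q = 0.0788). The hyperoxia call was lost without replicate 2, 3 or 4 of WT-O2 or any 1 of the KO-O2 mice, at log2 fold changes of 0.40 to 0.55 and q of 0.117 to 0.289.

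Sema3e, which binds plexin-D1 without a neuropilin, averaged 56.6 ± 5.77 CPM in WT-O2 and 72.3 ± 8.49 in KO-O2. It was called in hyperoxia at 0.35 (q = 0.0594) and stood at 0.26 in room air (q = 0.138), without overlap in either. The hyperoxia call was lost without replicate 3 or 4 of WT-O2 or replicate 2 or 3 of KO-O2, at 0.30 to 0.34 and q of 0.134 to 0.222.

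The windows before Sema3a and Sema3c are shown as the pair of class 3 ligands that separated the genotypes in opposite directions. They lie at chr5:13396534-13396783 and chr5:17574566-17574815 (GRCm38.p6), both on the plus strand, and are printed with the same capitals as above.
Sema3a: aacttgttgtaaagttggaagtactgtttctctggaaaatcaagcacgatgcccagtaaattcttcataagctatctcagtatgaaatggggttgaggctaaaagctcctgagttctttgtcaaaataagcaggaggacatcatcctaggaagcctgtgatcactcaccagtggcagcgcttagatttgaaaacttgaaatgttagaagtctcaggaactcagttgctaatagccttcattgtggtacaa
Sema3c: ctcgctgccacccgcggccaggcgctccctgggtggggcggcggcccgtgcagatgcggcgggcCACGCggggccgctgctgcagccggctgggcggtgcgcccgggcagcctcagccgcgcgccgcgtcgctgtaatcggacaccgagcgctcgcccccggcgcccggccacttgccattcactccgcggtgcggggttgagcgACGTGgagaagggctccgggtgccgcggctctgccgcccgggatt
The 2 windows differ in base composition, with G and C making up 40.8% of the Sema3a window and 78.4% of the Sema3c window. The Sema3a window held neither core, and the Sema3c window held GCGTG on the other strand at position -186 and ACGTG at position -45.

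The remaining class 3 members were not called. Sema3d had log2 differences of -0.31 in room air (q = 0.13) and -0.27 in hyperoxia (q = 0.248), and Sema3g of 0.10 and -0.04. Sema3b averaged 4.38 ± 2.96 CPM in KO-RA and 3.65 ± 2.07 in KO-O2, where its values ran from 0.966 to 6.30 CPM. The 2 knockout mice lowest for Sema3b, replicate 1 of KO-RA at 0.966 CPM and replicate 2 of KO-O2 at 1.36 CPM, were also lowest for the summed choroid plexus genes, at 28.04 and 95.3 CPM against 1683 to 3366 CPM in the other knockout mice. The same 2 mice were lowest of the knockout mice for Sema3f, at 2.01 and 4.51 CPM against 5.21 to 7.24 CPM in the other knockout mice. In WT-RA the sum was 2369, 1324, 908 and 1937 CPM and Sema3f 10.8, 10.1, 11.6 and 9.58 CPM. In WT-O2 the sum was 954, 1328.5, 1388.5 and 1457 CPM and Sema3f 9.82, 12.7, 9.70 and 13.1 CPM. Neither wild-type group had the same order of mice for Sema3f and the sum. The part of choroid plexus in the Sema3b and Sema3f values was not tested.

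**Figure D4:**
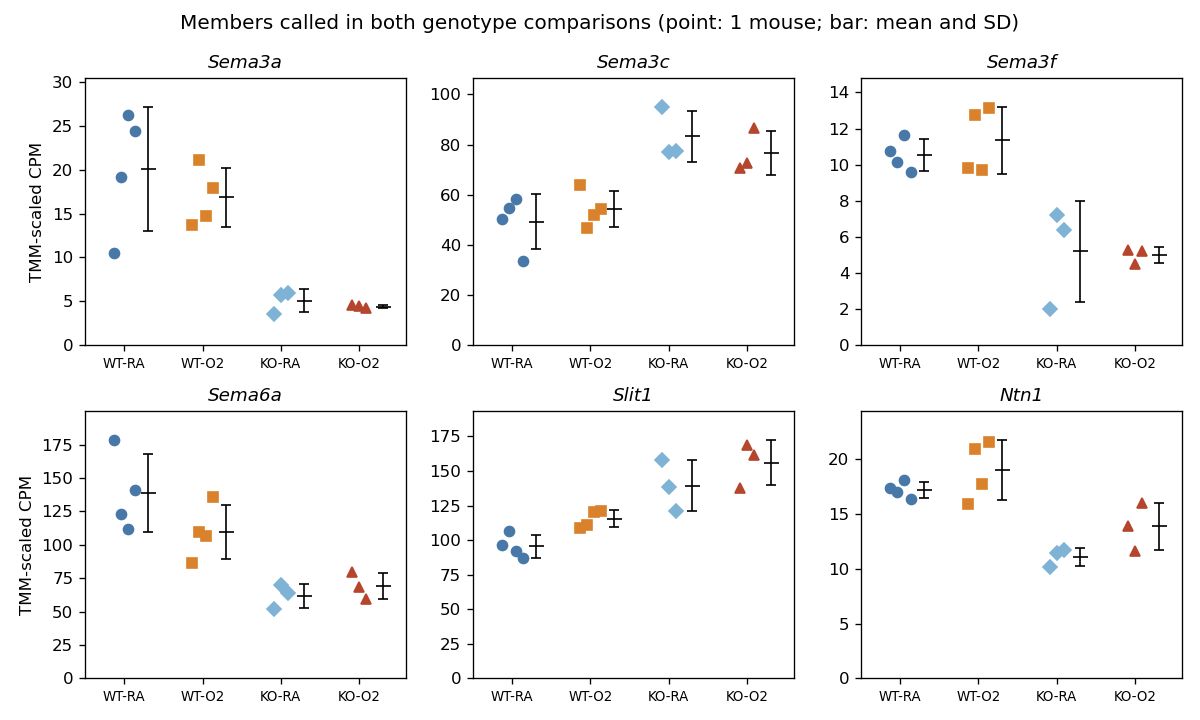
TMM-scaled CPM of the 6 members called in both genotype comparisons, in each library by group, with the group mean and SD as a bar. Sema3a, Sema3f and Sema6a are lower and Sema3c and Slit1 higher in all 6 knockout mice than in all 8 wild-type mice, and Ntn1 overlaps narrowly, with a highest knockout value of 16.0 CPM and a lowest wild-type value of 15.9 CPM.

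Among the 13 membrane semaphorins 5 were called in room air, all lower in KO-RA, and 1 in hyperoxia. Sema6a stood at 178, 123, 112 and 141 CPM in WT-RA, 86.2, 109, 107 and 136 CPM in WT-O2, 52.3, 70.0 and 63.6 CPM in KO-RA and 79.5, 68.6 and 59.8 CPM in KO-O2. Every knockout mouse was below every wild-type mouse. The log2 fold change was -1.16 in room air (q = 0.000859) and -0.66 in hyperoxia (q = 0.0329), and the latter call was lost without replicate 4 of WT-O2 or replicate 2 or 3 of KO-O2, at -0.53 to -0.65 and q of 0.102 to 0.161.

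Sema4d stood at 227, 157, 146 and 194 CPM in WT-RA and 87.8, 107 and 106 CPM in KO-RA, with a log2 fold change of -0.85 (q = 0.0151). In hyperoxia it stood at 103, 133, 155 and 201 CPM in WT-O2 and 124, 88.4 and 89.3 CPM in KO-O2, and the difference of -0.56 was not called (q = 0.13). The genotypes did not overlap in room air and overlapped in hyperoxia.

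The other called membrane semaphorins had smaller changes in room air. Sema4a, best known from T cells, averaged 37.0 ± 4.41 CPM in WT-RA and 24.8 ± 1.84 in KO-RA (log2 fold change -0.58, q = 0.0043). Sema4c, a plexin-B2 ligand, averaged 17.4 ± 1.22 and 13.5 ± 0.821 CPM (-0.37, q = 0.0128), and Sema5b, a repellent with thrombospondin repeats, 30.7 ± 4.78 and 23.8 ± 0.210 CPM (-0.37, q = 0.0868). No mouse overlapped between the genotypes for these 3 genes.

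Of these 3 only Sema4a kept its call whichever mouse was left out. Sema4c fell under the fold threshold without replicate 1 of WT-RA or replicate 3 of KO-RA, at -0.32 and -0.31, and the Sema5b call was lost without replicate 2 or 3 of WT-RA or any 1 of the KO-RA mice, at -0.26 to -0.37 and q of 0.159 to 0.211. In hyperoxia the differences were -0.30 for Sema4a (q = 0.138), -0.13 for Sema4c (q = 0.461) and -0.09 for Sema5b (q = 0.774). The 3 interaction terms for these genes had unadjusted p of 0.0639 to 0.148.

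Among the 9 plexins, Plxnb3 and Plxnd1 were called in room air, both lower in KO-RA, and Plxnc1 in hyperoxia. Plxnb3, a Sema5a receptor expressed in oligodendrocytes, stood at 81.2, 56.7, 44.4 and 58.3 CPM in WT-RA and 24.8, 32.5 and 32.8 CPM in KO-RA without overlap (log2 fold change -1.0, q = 0.00978), and at -0.57 in hyperoxia (q = 0.158), a difference that DESeq2 called (q = 0.0772). Plxnd1, the Sema3e receptor, averaged 114 ± 37.5 CPM in WT-RA and 81.0 ± 7.50 in KO-RA (-0.49, q = 0.0884). The WT-RA mean of Plxnd1 rested on replicate 3 at 168 CPM, without which the difference was -0.24 (q = 0.137), and the call was also lost without replicate 2 of WT-RA or any 1 of the KO-RA mice, at -0.42 to -0.56 and q of 0.122 to 0.275. In hyperoxia Plxnd1 stood at -0.41 and was not called (q = 0.211). The mice did not overlap there, at 111 to 129 CPM in WT-O2 and 88.2 to 93.9 CPM in KO-O2.

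Plxnc1 was called lower in KO-O2 (log2 fold change -0.40, q = 0.0538) and stood at 0.08 in room air (q = 0.731). The hyperoxia call was lost without replicate 2 of WT-O2 or replicate 1 or 3 of KO-O2, at -0.35 in each case and q of 0.139 to 0.217. The WT-O2 mice in it are the ones in which the gene was called higher than in WT-RA. Plxna4 stood at 0.37 in room air (q = 0.126) and 0.35 in hyperoxia (q = 0.197), and Plxna1 at 0.23 (q = 0.192) and 0.18 (q = 0.381), neither called by edgeR. DESeq2 called Plxna4 in room air (0.38, q = 0.0718).

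Slits were higher in the knockout where they were called. Slit1 stood at 158, 138 and 121 CPM in KO-RA and 138, 169 and 162 CPM in KO-O2, above all 8 wild-type mice, whose values are given above, although the lowest KO-RA mouse cleared the highest WT-O2 mouse only narrowly. The log2 fold change was 0.54 in room air (q = 0.00253) and 0.44 in hyperoxia (q = 0.0125). Slit3 was called in room air at 0.52 with a standard error of 0.09 (q = 0.00194), with the KO-RA mice at 66.4 to 82.6 CPM and the WT-RA mice at 47.2 to 53.5 CPM, and stood at 0.15 in hyperoxia (q = 0.392). The higher Slit3 in WT-O2 and in KO-RA are measured against the same WT-RA libraries. Slit2 stood at 0.16 in room air (q = 0.434) and -0.03 in hyperoxia (q = 0.933).

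No Robo was called by genotype. Robo1 stood at 0.25 in room air (q = 0.209) and 0.06 in hyperoxia (q = 0.861), and Robo2 at -0.32 (q = 0.204) and -0.12 (q = 0.755). Robo3, a commissural receptor, had a wide spread, from 8.14 to 28.9 CPM among the WT-RA mice, and stood at 0.29 (q = 0.705) and 0.71 (q = 0.297).

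Netrin-1, the attractant and repellent of the family, was lower in the knockout. Ntn1 stood at 17.3, 17.0, 18.1 and 16.4 CPM in WT-RA and 10.1, 11.4 and 11.7 CPM in KO-RA, a wide gap without overlap (log2 fold change -0.63, q = 0.00449). In hyperoxia it stood at 15.9, 21.0, 17.7 and 21.6 CPM in WT-O2 and 13.9, 11.7 and 16.0 CPM in KO-O2, narrowly overlapping (-0.46, q = 0.0368). That call was lost without replicate 2 or 4 of WT-O2 or replicate 1 or 2 of KO-O2, at -0.35 to -0.46 and q of 0.102 to 0.163.

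The other netrins were not called. Ntn4, a laminin-like netrin of basement membranes, stood at -0.32 in room air (q = 0.116) and -0.17 in hyperoxia (q = 0.495). Ntn3 shares exon bases with Tbc1d24 on the same strand, and Ntn5 with Sec1 and Unc5a with Hk3 on the opposite strand, so that reads of each pair may not be told apart. Ntn5 had 6 to 30 counts per library, the lowest of the members.

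Among the netrin receptors the direction differed by gene. Dcc was called higher in KO-RA, at 61.0, 52.2 and 53.0 CPM against 42.0 to 45.6 CPM in WT-RA without overlap (log2 fold change 0.34, q = 0.0474). The call was lost without replicate 1 of KO-RA, at 0.26 (q = 0.209), and it fell just under the fold threshold with library size in place of TMM and, at 0.30 (q = 0.0671), with replicate 4 of WT-O2 counted as room air. In hyperoxia Dcc stood at 0.20 (q = 0.309). Unc5a had q = 0.035 in room air but a log2 difference of 0.30, under the fold threshold, and stood at 0.17 in hyperoxia (q = 0.294).

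Unc5b, a netrin receptor known from vessels, stood at 45.02, 32.1, 23.1 and 36.5 CPM in WT-RA and 16.6, 20.6 and 18.5 CPM in KO-RA without overlap (log2 fold change -0.88, q = 0.0236), and at -0.66 in hyperoxia (q = 0.113), where DESeq2 called it (q = 0.0408). The room air call was lost without replicate 1 of KO-RA, at -0.80 (q = 0.107). Unc5d was called in hyperoxia, at 44.6, 55.6, 51.8 and 46.9 CPM in WT-O2 and 23.4, 29.5 and 27.6 CPM in KO-O2, far apart (-0.89, q = 0.00513). In room air it stood at -0.39 (q = 0.162) with overlapping mice.

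Of the called genotype differences, those of Sema4d, Sema6a, Plxnb3 and Unc5b lay beside a difference in oligodendrocyte genes. The summed level of Mbp, Mog, Mag and Cnp was 11455, 7372, 4912 and 10372 CPM in the WT-RA mice, 3066, 4925, 6344 and 7946 CPM in WT-O2, 2131, 3364 and 3386 CPM in KO-RA and 3722, 2143 and 2450 CPM in KO-O2. The genotypes did not overlap in room air, and in hyperoxia replicate 1 of WT-O2 fell within the knockout range. Sema4d, Plxnb3 and Unc5b had the same order of the mice as this sum within WT-RA and within WT-O2, and Sema6a had it within WT-RA. Within KO-RA only Plxnb3 of these 4 had that order, and within KO-O2 only Sema4d and Unc5b. Sema6a had it neither in WT-O2 nor in the knockout groups. Sema6a had the order of the summed oligodendrocyte precursor genes within WT-RA, WT-O2 and KO-O2, but not within KO-RA. Replicate 1 of WT-O2, lowest of the wild-type mice for the sum, was also lowest of them for Sema4d at 103 CPM, Sema6a at 86.2 CPM, Plxnb3 at 28.8 CPM and Unc5b at 19.8 CPM. The part of oligodendrocytes in these 4 results was not tested.

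**Figure D5:**
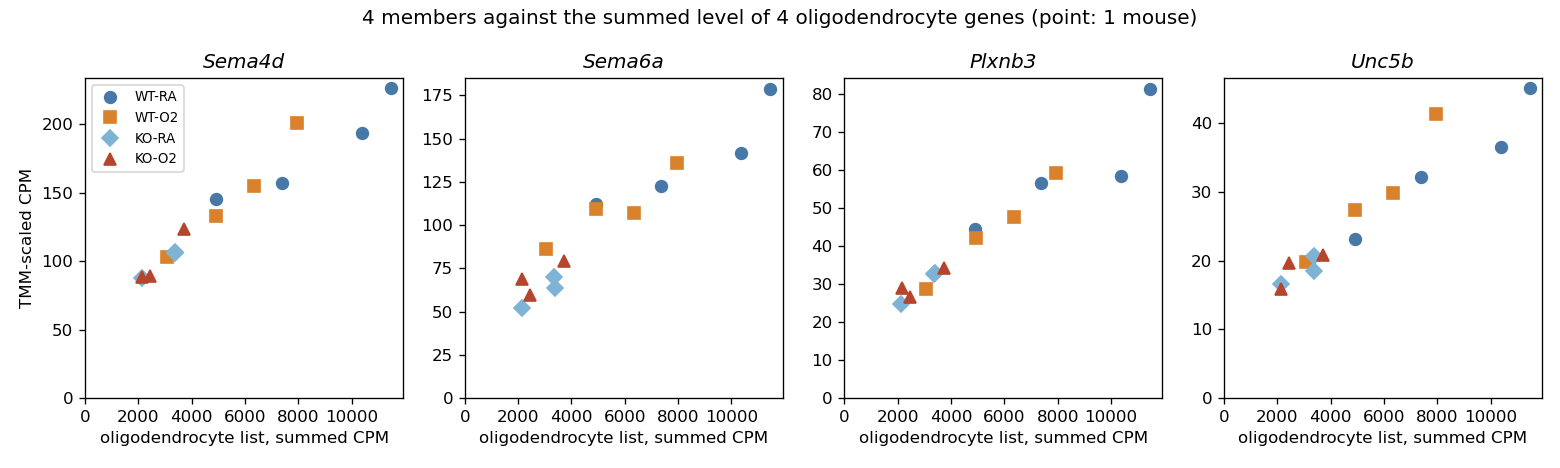
TMM-scaled CPM of Sema4d, Sema6a, Plxnb3 and Unc5b (vertical axes) against the summed CPM of 4 oligodendrocyte genes (horizontal axes), 1 point per mouse and a marker per group. The knockout mice lie at sums of 2131 to 3722 CPM and low member levels, and the sum of replicate 1 of WT-O2 lies among theirs at 3066 CPM. Its Sema6a level of 86.2 CPM is above the highest knockout mouse at 79.5 CPM.

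Genes that work with these families were read from a list of 15 coreceptors and related ligands or receptors. In wild-type hyperoxia 1 of 15 was called, beside 0.643% of all genes tested. It was the class 3 coreceptor Nrp2, which stood at 69.3, 70.4, 44.4 and 64.9 CPM in WT-RA and at 102.7, 104.4, 101.7 and 97.3 CPM in WT-O2 without overlap (log2 fold change 0.71, q = 0.0299). DESeq2 called 3 of 15 there, Nrp2 with Chl1, higher at 0.38 (q = 0.0965), and Flrt2, lower at -0.42 (q = 0.0627), for which edgeR gave q of 0.232 and 0.186. In the knockout 0 of 15 were called by edgeR or DESeq2, beside 0.012% of all genes tested by edgeR. There 0 of 15 had an unadjusted p below 0.05, beside 4.86%. Nrp2 there stood at 93.8 to 121 CPM over both groups (0.17, q = 0.997). Of the 15 interaction terms 0 were called by edgeR or DESeq2. By edgeR 1 had an unadjusted p below 0.05, beside 4.05% of all genes tested. That was Nrp2, with a log2 difference of -0.54 (unadjusted p = 0.00841, q = 0.9999). The exposure response of Nrp2 was therefore not shown to differ between genotypes. In room air 7 of 15 were called by genotype, beside 10.4% of all genes tested. Higher in KO-RA were Nrp1 (0.75, q = 0.000427), Nrp2 (0.72, q = 0.00254), the netrin antagonist Draxin (0.80, q = 0.0231), the adhesion molecule Chl1 (0.45, q = 0.0487) and the Unc5 ligand Flrt3 (0.35, q = 0.0462). The higher Nrp2 in WT-O2 and in KO-RA are measured against the same WT-RA libraries. Lower in KO-RA were the membrane-anchored netrin-G1 gene Ntng1 (-1.20, q = 0.0921) and the neogenin ligand Rgma (-0.45, q = 0.00647). Ntng1 stood at 105, 48.3, 19.9 and 34.4 CPM in WT-RA and at 20.1 to 25.0 CPM in KO-RA, with overlapping mice. The thalamus and habenula genes of these WT-RA mice summed to 799, 353, 135 and 251 CPM. Ntng1 had the same order of the mice as this sum within WT-RA, WT-O2 and KO-RA, but not within KO-O2. The part of the thalamus in the Ntng1 values was not tested.

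In hyperoxia 2 of 15 were called by genotype, beside 6.86% of all genes tested, Nrp1 higher at 0.55 (q = 0.00481) and Ntng1 lower at -1.45 (q = 0.0634). Nrp1, the coreceptor of Sema3a, thus stood at 69.5 to 85.2 CPM in the 6 knockout mice and at 40.4 to 58.5 CPM in the 8 wild-type mice, without overlap and opposite in direction to Sema3a itself.

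Among 35 downstream genes 0 were called by edgeR or DESeq2 in either exposure comparison, beside 0.643% and 0.012% of all genes tested by edgeR. An unadjusted p below 0.05 by edgeR was reached by 5 and 2 of 35, beside 12.2% and 4.86%. By genotype 5 were called in room air, beside 10.4% of all genes tested, and 4 in hyperoxia, beside 6.86%. The actin oxidase gene Mical2 was higher in both (0.35, q = 0.0489, and 0.55, q = 0.00699), as was the Robo-linked gene Arhgap39 (0.42, q = 0.00493, and 0.52, q = 0.00236), and the small GTPase gene Rnd1 was lower in both (-0.59, q = 0.0349, and -0.59, q = 0.0492). The kinase gene Abl1 was called lower in room air (-0.35, q = 0.0252) and stood at -0.10 in hyperoxia (q = 0.62). Mical3 was called lower in room air (-0.44, q = 0.011) and stood at -0.30 in hyperoxia (q = 0.0952), under the fold threshold. The adaptor gene Nck2 was called higher in hyperoxia (0.43, q = 0.00761) and stood at 0.25 in room air (q = 0.0792), also under the fold threshold. Of the 35 interaction terms 0 were called by edgeR or DESeq2. By edgeR 0 had an unadjusted p below 0.05, beside 4.05% of all genes tested.

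The Eph receptors and ephrins are the other large family of contact guidance cues. Of 22 genes, 0 were called by edgeR or DESeq2 in either exposure comparison, beside 0.643% and 0.012% of all genes tested by edgeR. An unadjusted p below 0.05 by edgeR was reached by 6 and 0 of 22, beside 12.2% and 4.86%. By genotype 9 of 22 were called in room air, beside 15 of the 45 members and 10.4% of all genes tested, and 8 of 22 in hyperoxia, beside 9 of 45 and 6.86%. Their median log2 fold change was 0.14 in wild-type hyperoxia, 0.02 in knockout hyperoxia, -0.05 by genotype in room air and 0.01 by genotype in hyperoxia. No difference between the families was tested.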

How the data were processed

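The authors deposited 1 table of estimated counts per gene for the 14 mice, made with kallisto on genome build GRCm39 and summarised by gene with tximport; strandedness and tool versions were not given in the sources used here. Between 40.8% and 43% of values were not whole, and counts were rounded. Symbols were found for 35825 of 36118 gene IDs. Genes were filtered with filterByExpr, scaled by TMM and tested with edgeR 4.0.16 (R 4.3.3, limma 3.58.1), with 1 coefficient per group over all 14 libraries, quasi-likelihood F-tests and Benjamini-Hochberg adjustment over all genes tested. Called means a log2 fold change of 0.32 or more in size, p below 0.05 and q below 0.1, thresholds after the study's methods, whose tool was DESeq2. The code was tested on simulated data.

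The members, the gene lists and the promoter motifs were chosen with earlier results of these data known. Named with full statistics were the 18 members called in at least 1 comparison, members that did not overlap at an unadjusted p below 0.05 under exposure, and the member of highest mean CPM in each of 7 roles, 24 in all; others singled out were chosen after their values were seen. 1 gene of the oligodendrocyte list is not reported here. Group membership followed sample titles. The titles give mouse numbers only, and replicates were numbered within each group in the order of those numbers: 398, 399, 400 and 401 in WT-RA, 404, 405, 406 and 408 in WT-O2, 489, 490 and 496 in KO-RA, and 491, 494 and 495 in KO-O2. Labels say the samples are separate mice; litters are not given.

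Lengths are of the longest principal transcript in GENCODE vM21 (GRCm38), and promoters are from RefSeq (GRCm38.p6), another build than that of the counts, so positions apply to that reference only. Alternatives were DESeq2 1.42.0, 2 other scalings, 2 other count filters, the groups compared alone, stricter thresholds, replicate 4 of WT-O2 as room air, and each mouse left out.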

Additional observations from a re-analysis of the deposited data

Results flagged for a closer look

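Within the WT-RA and WT-O2 groups of 4 mice, the 24 named members were examined for a mouse far from the other 3. Of these 48 sets of values, 0 passed Dixon's critical value at the 95% level. Groups of 3 mice were not examined, and no exposure effect differed between genotypes after adjustment.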

How the results depend on the processing

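Of 26 called differences followed, 9 kept their call in every alternative: Sema3a in both exposures, Sema3c, Sema4d, Sema6a, Plxnb3 and Ntn1 in room air, and Sema3f and Unc5d in hyperoxia. The other 17 lost it in at least 1, and of 30 followed 0 reversed. Sema4a and Slit3 in room air and Slit1 in both exposures lost it only with a fold of 1.5. That fold and q below 0.05 are stricter thresholds on the main fit, not new fits. DESeq2 called 3 members in WT-O2 against WT-RA, with Unc5d beside the 2 of edgeR, 16 in KO-RA against WT-RA, with Plxna4, and 11 in KO-O2 against WT-O2, with Plxnb3 and Unc5b. Over all genes tested it called 306 in WT-O2 against WT-RA where edgeR called 107, and 13 in KO-O2 against KO-RA where edgeR called 2. By genotype it called 1816 of 16637 genes in room air, where edgeR called 1738, and 1306 in hyperoxia, where edgeR called 1142. The members called in WT-O2 against WT-RA went from 2 to 1 with the groups compared alone and to 0 with a fold of 1.5, with q below 0.05 or with replicate 4 of WT-O2 as room air. In KO-RA against WT-RA the 15 became 8 with a fold of 1.5, and in KO-O2 against WT-O2 the 9 became 4 with that fold and 5 with replicate 4 of WT-O2 as room air, which ended the calls of Sema3c, Sema3e, Plxnc1 and Ntn1. Counting it so also ended the room air call of Dcc. Sema3f lost its room air call with the groups compared alone (q = 0.124). Leaving out 1 mouse gave 0 to 3 called members in WT-O2 against WT-RA, 0 to 0 in KO-O2 against KO-RA and for the interaction, 11 to 18 in KO-RA against WT-RA, and 5 to 14 in KO-O2 against WT-O2. The 5 came without replicate 4 of WT-O2 or replicate 3 of KO-O2, and the 14 without replicate 1 of WT-O2. The cause, the smaller number of mice included, was not tested. How many of all genes were called with a fold of 1.5 or without 1 mouse is not given here. Other scalings moved the median of all genes by at most 0.02 on the log2 scale. No paired analysis was possible because the labels carry mouse numbers but no replicate numbers shared between groups. With 3 or 4 mice a group, small changes of members with wide spread, such as Robo3, Sema3b and Ntn5, could not be resolved at this number of mice.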
